A study of Mus musculus with 24 samples.

Results

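The Hox cluster genes encode homeodomain transcription factors that lie side by side in 4 chromosomal clusters. They were followed here through 3 tissues of adult and aged mice, namely kidney, skeletal muscle and the left ventricle of the heart. Of the 55401 genes in the deposited count table, 39 carried a symbol made of Hox, a cluster letter from a to d and a number, and all 39 were taken. This rule uses the symbol and no measured value, but members were chosen with earlier results of these data known. The HoxA cluster (11 genes) lies on the minus strand of chromosome 6 in GRCm38. HoxB (10 genes) spans chr11:96194316-96368256, HoxC (9 genes) chr15:102921103-103036852 and HoxD (9 genes) chr2:74668310-74765142, all 3 on the plus strand. Genes with the same number in different clusters form a paralog group. The numbers rise from the 3′ end of each cluster to 13, starting at 1 in HoxA, HoxB and HoxD and at 4 in HoxC.

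The animals were C57BL6/J mice of 16.5 or 86 weeks, 4 of each age and 2 of each sex within an age, with no treatment or genetic change named in the labels. The 3 tissues were taken from every mouse, which gave 8 libraries per tissue and 24 in all, made from ribosome-depleted total RNA. Ages and sexes were therefore compared between mice. Tissues came from the same mice, but the main tissue tests held no term for the mouse, which was entered as a block in an alternative fit only. The labels do not name the muscle.

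In the embryo the Hox genes are switched on along the body axis in the order in which they lie in the cluster, low numbers towards the head and high numbers towards the tail, and adult cells often keep part of that address. The heart forms far forward, the kidney from intermediate mesoderm of the trunk, and limb muscle precursors migrate from somites into limb buds patterned by the high-numbered HoxA and HoxD genes. Hox proteins bind DNA together with homeodomain partners of the Pbx, Meis and Pknox families, and Polycomb complexes keep unused Hox genes silent.

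Library totals ran from 52602585 to 103797551 counts. Counts assigned to the 39 Hox genes came to 2762 to 4033 per library in the left ventricle, 8145 to 13403 in muscle and 22954 to 31942 in kidney. In CPM, the count scaled to the library total, this was 43.4 ± 8.62 (SD, n = 8) in the left ventricle, 127 ± 12.1 in muscle and 386 ± 48.8 in kidney, and the 3 ranges did not overlap. Levels below are CPM on library sizes adjusted by trimmed means (TMM), divided by the length of the gene's exons, so that genes of unequal length can be set side by side. Myh6, the cardiac myosin heavy chain, Myh4, the fast skeletal one, and Umod, which encodes a urinary glycoprotein made by kidney tubules, were each higher in every library of their own tissue than in any library of the others. Muscle libraries held up to 342 CPM of Myh6 and up to 19.3 CPM of Umod, against means of 37911 CPM in the left ventricle and 1646 CPM in kidney. These are bulk samples, in which fewer cells of a type and less RNA per cell cannot be told apart.

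Background was read from 1100 protein-coding olfactory receptor genes, a family used mainly in the nose. Their 95th percentile was 0.287 CPM per exon kilobase in the left ventricle, 0.336 in muscle and 0.243 in kidney. By that line 32 Hox genes were above background in the left ventricle, 37 in muscle and 37 in kidney, beside 61.3%, 59.7% and 64.2% of all genes with a known length. The line is therefore a low one. A second reading used 8 other homeobox genes that pattern the embryo (Cdx1, Cdx2, Cdx4, Gsx1, Gsx2, Pdx1, Evx1 and Evx2), and counted members above the highest of them, Evx1, which stood at 0.661 in the left ventricle, 0.608 in muscle and 0.375 in kidney. Above that gene lay 32 Hox genes in kidney, 26 in muscle and 1 in the left ventricle, a setting chosen after the data were seen.

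**Figure D1:**
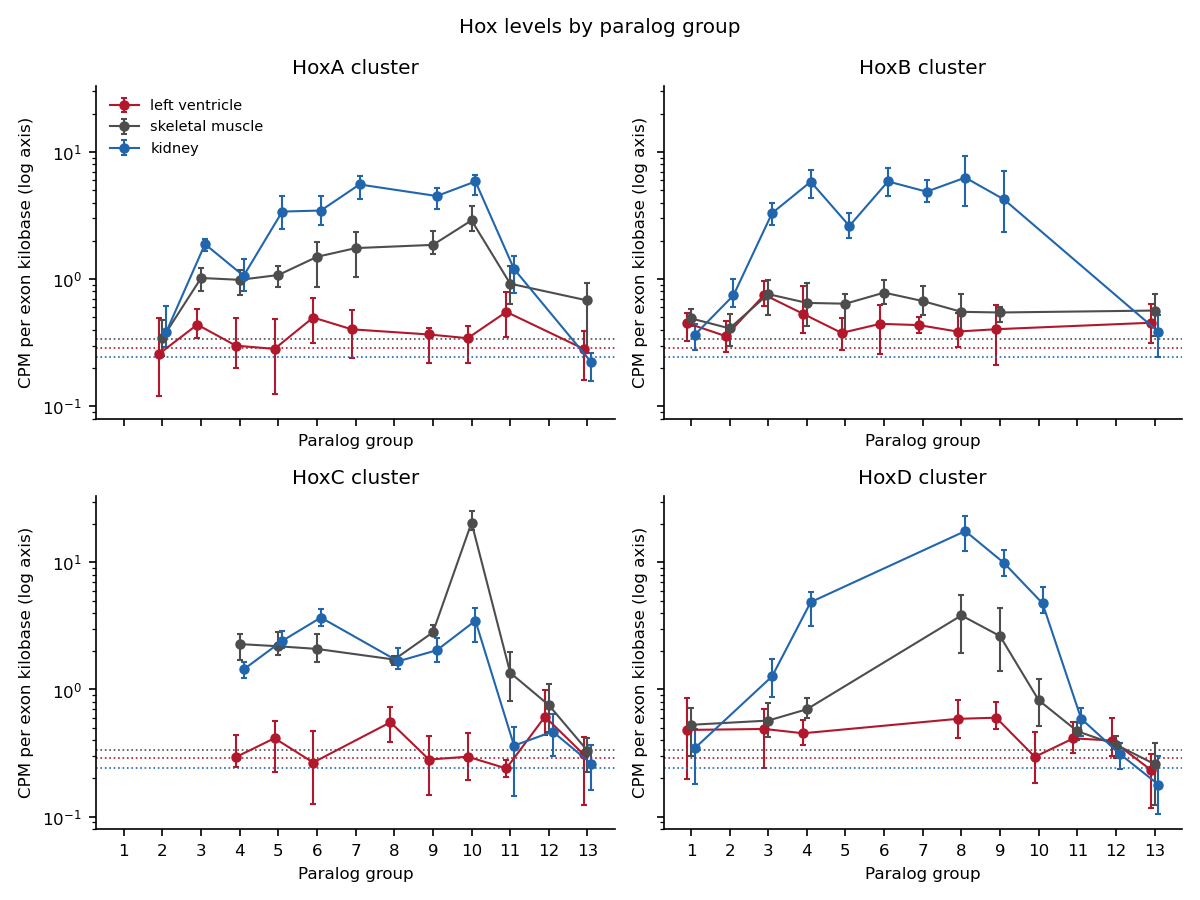
Mean level of 38 Hox genes (CPM per exon kilobase, log axis) against its paralog group, 1 panel per cluster. Points are means over the 8 libraries of a tissue, bars run from the lowest to the highest library, and dotted lines mark the 95th percentile of olfactory receptor genes in each tissue. Averaged over the genes of a range of groups, kidney levels are highest in groups 4 to 8 of every cluster, although the highest single HoxA gene in kidney is Hoxa10 (5.860). Muscle levels peak at Hoxc10 with 20.5 and left ventricular levels stay between 0.234 and 0.753.

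Kidney held the broadest Hox signal. Summed over the 39 genes the level was 118 ± 13.7 CPM per exon kilobase (SD, n = 8), against 63.8 ± 4.47 in muscle and 15.9 ± 2.04 in the left ventricle. Paralog groups 4 to 8 (15 genes) made up 59.7% ± 1.03 of the kidney sum and groups 9 to 13 (16 genes) 32.8% ± 1.09. Groups 1 to 3 (8 genes, none in HoxC) made up 7.50% ± 0.483. HoxD gave 33.5% of the sum, HoxB 29.1%, HoxA 23.9% and HoxC 13.5%. All 4 clusters contributed in kidney, and in each the mean level per gene was highest in groups 4 to 8, at 3.37 in HoxA, 5.09 in HoxB, 2.30 in HoxC and 11.2 in HoxD.

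Hoxd8 was the kidney's leading Hox gene, with 3037 to 5308 counts per library and 14.8% of the summed level. Its kidney levels were 22.9, 19.3, 13.7 and 15.9 CPM per exon kilobase in the 16.5-week mice and 18.2, 19.9, 12.2 and 18.7 in the 86-week mice, in the order of replicates 14, 15, 19 and 20 and then 11, 12, 14 and 17. In the left ventricle it ran from 0.419 to 0.821 with a median of 0.568, and in muscle from 1.93 to 5.53 with a median of 4.26. No kidney library came within a factor of 2 of any muscle library. Hoxd9, its 5′ neighbour in the cluster, came second in kidney with 12.5, 9.94, 8.53 and 9.44 at 16.5 weeks and 9.15, 11.8, 7.81 and 10.0 at 86 weeks. The highest library for Hoxd9 (12.5) was just above the lowest for Hoxd8 (12.2), so the ranges of these neighbours in the ranking overlapped.

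Hoxb8 and Hoxb6 followed. Hoxb8 stood at 7.86, 6.45, 5.18 and 5.17 in the 16.5-week kidneys and 7.49, 9.32, 3.79 and 5.02 in the 86-week kidneys, a 2.46-fold spread between its lowest and highest library. Hoxb6 stood at 6.42, 5.77, 5.13 and 5.64 at 16.5 weeks and 6.27, 7.46, 4.53 and 5.70 at 86 weeks. From Hoxb8 down, the means of Hoxb6 (5.864), Hoxa10 (5.860), Hoxb4 (5.83), Hoxa7 (5.55), Hoxb7 (4.87), Hoxd4 (4.863) and Hoxd10 (4.76) had ranges that overlapped with the next gene in the order. At the other end were 3 of the 4 genes of group 13, which pattern the hind end of the body. Hoxa13 (0.222) and Hoxd13 (0.179) were below the olfactory line of 0.243 in kidney and Hoxc13 (0.261) just above it, while Hoxb13 stood at 0.385.

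Promoter sequence from RefSeq was at hand for 22 of the 39 genes (GRCm38.p6, the 250 bases before the start). It is shown for 3 leading genes, Hoxd8, Hoxb8 and Hoxa10, whose RefSeq start is also the start of the GENCODE gene. The windows are chr2:74704365-74704614 on the plus strand, chr11:96281655-96281904 on the plus strand and chr6:52240855-52241104 on the minus strand, and none overlaps an annotated exon. Capitals mark TTTATNG on either strand, letters favoured by Cdx and posterior Hox homeodomains.
Hoxd8: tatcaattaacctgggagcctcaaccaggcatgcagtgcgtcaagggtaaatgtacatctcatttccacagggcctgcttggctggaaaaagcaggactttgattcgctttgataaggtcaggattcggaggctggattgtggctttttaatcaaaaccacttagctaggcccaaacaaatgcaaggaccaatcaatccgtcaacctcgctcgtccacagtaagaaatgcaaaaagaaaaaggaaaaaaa
Hoxb8: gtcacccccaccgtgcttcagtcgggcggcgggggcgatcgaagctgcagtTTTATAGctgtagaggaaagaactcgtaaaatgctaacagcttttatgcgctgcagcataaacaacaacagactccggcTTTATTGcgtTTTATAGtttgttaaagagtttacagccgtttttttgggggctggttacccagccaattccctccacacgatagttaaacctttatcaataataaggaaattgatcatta
Hoxa10: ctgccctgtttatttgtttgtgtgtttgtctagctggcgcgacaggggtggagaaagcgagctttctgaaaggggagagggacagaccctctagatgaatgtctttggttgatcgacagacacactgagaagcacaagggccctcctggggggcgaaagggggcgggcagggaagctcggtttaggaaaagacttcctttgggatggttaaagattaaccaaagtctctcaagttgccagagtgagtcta
TTTATNG was present 3 times before Hoxb8, and these letters were not found in the windows of the other two. Among the 22 Hox promoters 2 (Hoxb8 and Hoxd4) held it, 9.09%, and among all 32851 promoter entries 9.81% did. The Pbx-Hox letters TGATTNAT, searched on both strands, were in 1 of the 22 (Hoxa2), 4.55%, and in 2.83% of all entries. A match is a description of the letters and not a binding site. The Hox windows held a median of 12 CG dinucleotides (2 to 35), against 6 over all entries, and the 3 printed windows held 6, 12 and 7.

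**Figure D2:**
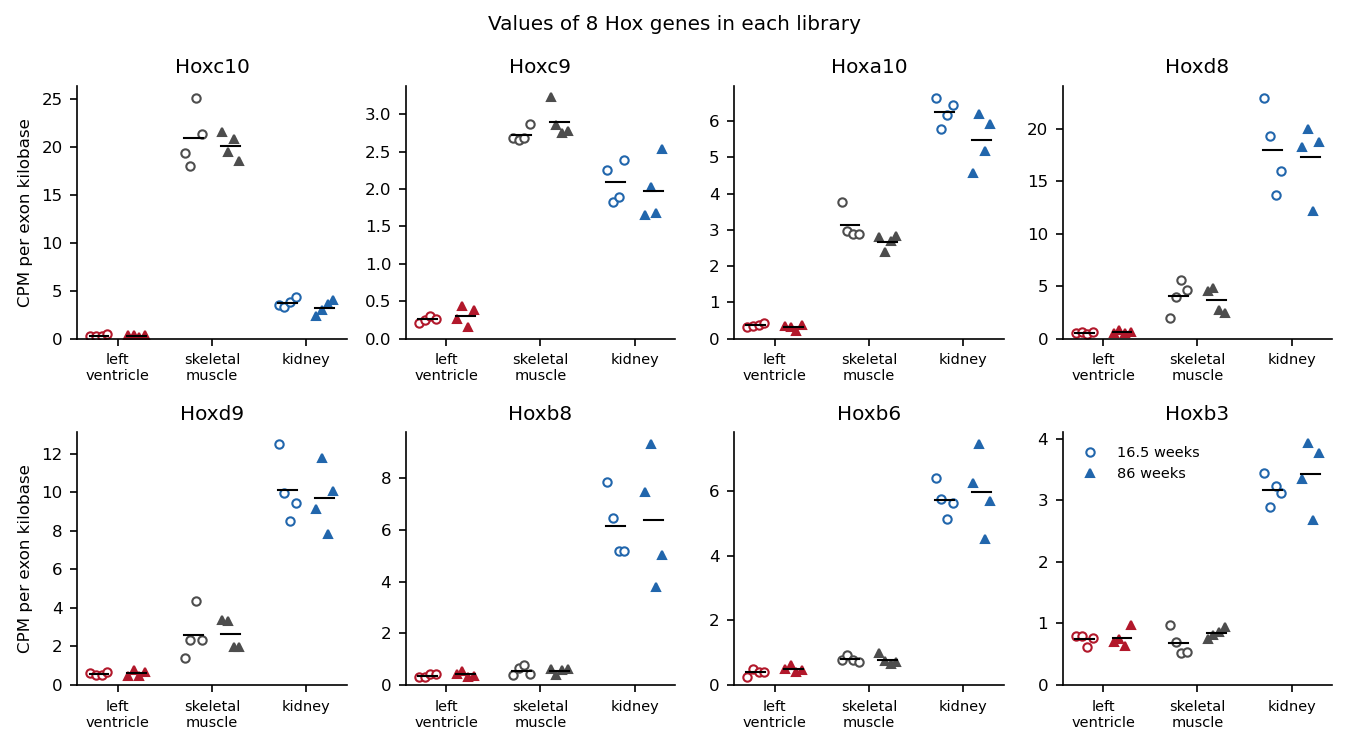
Level of 8 Hox genes in every library (CPM per exon kilobase, linear axes from 0), by tissue and age. Open circles are 16.5-week mice, filled triangles 86-week mice and bars the mean of 4. Hoxc10 stands at 18.0 to 25.1 in muscle, and Hoxb8 and Hoxb6 are higher in every kidney than in any library of the other 2 tissues.

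Skeletal muscle had a narrower pattern that rested on HoxC. Hoxc10, a group 10 gene expressed in the lumbar trunk and hindlimb of the embryo, stood at 19.4, 18.0, 25.1 and 21.3 CPM per exon kilobase in the 16.5-week muscles and 21.5, 19.4, 20.8 and 18.5 in the 86-week muscles. Alone it made up 32.1% ± 1.92 (SD, n = 8) of the summed Hox level in muscle, and its lowest library was above the highest of every other Hox gene there. HoxC as a whole gave 53.3% ± 2.42 of the muscle sum, HoxA 21.3% ± 1.84, HoxD 15.8% ± 2.88 and HoxB 9.56% ± 1.07. Groups 9 to 13, with Hoxc10 among them, made up 59.1% ± 1.87 in muscle, and groups 4 to 8 made up 33.5% ± 1.52.

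The next muscle genes were Hoxd8, Hoxa10, Hoxc9 and Hoxd9, with ranges that overlapped from each to the next. Hoxd8 varied widely, with 1.93, 4.00, 5.53 and 4.62 at 16.5 weeks and 4.53, 4.85, 2.73 and 2.40 at 86 weeks. Hoxa10 was steadier, with 3.77, 2.97, 2.87 and 2.87 at 16.5 weeks and 2.80, 2.39, 2.68 and 2.82 at 86 weeks. Hoxc9, the 3′ neighbour of Hoxc10, stood at 2.69, 2.66, 2.69 and 2.87 at 16.5 weeks and 3.23, 2.86, 2.75 and 2.77 at 86 weeks, a ratio of 1.21 between the highest and lowest library.

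Spread between muscles of different mice was uneven across genes. Among the 26 muscle genes above the highest reference homeobox gene, the ratio of the highest to the lowest library had a median of 1.66 and passed 2 for 10 genes. The largest ratios were those of Hoxa13 (3.52), Hoxd9 (3.13) and Hoxd8 (2.87), and the lowest library for all 3, and for Hoxd10 (2.33), was the 16.5-week replicate 14. The same library held the highest muscle level of Hoxa10 (3.77) and of Hoxb4 (0.933). In kidney 5 of 32 genes passed a ratio of 2, led by Hoxb9 (2.98) and Hoxb8 (2.46), and the 86-week replicate 14 was the lowest library for 15 of the 32.

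Hoxc13 (0.330) and Hoxd13 (0.259) were low in muscle as well, and Hoxb13 stood at 0.566. Hoxa13, which lies at the 5′ end of HoxA and is needed for digit formation, was higher at 0.679 ± 0.208 (SD, n = 8), its 8 libraries lying between 0.264 and 0.930. HoxB genes stayed between 0.410 (Hoxb2) and 0.783 (Hoxb6) in muscle, close to the reference homeobox genes at 0.231 to 0.608.

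Left ventricle gave little Hox signal. The 39 means lay between 0.234 (Hoxd13) and 0.753 (Hoxb3), a span close to that of the 8 reference homeobox genes (0.210 to 0.661). Hoxb3, an anterior gene of group 3, was the highest, at 0.791, 0.792, 0.615 and 0.771 in the 16.5-week and 0.697, 0.755, 0.631 and 0.970 in the 86-week ventricles, from 191 to 284 counts per library. Hoxb3 shares 52.9% of its exon bases with Hoxb3os on the opposite strand. The next were Hoxc12 (0.611 ± 0.185, 38 to 71 counts per library), Hoxd9 (0.600 ± 0.121) and Hoxd8 (0.588 ± 0.119), and every step in the top of the order had overlapping ranges. Hoxc12 belongs to the far 5′ end of its cluster, but it stood below the highest reference gene (0.661), and only Hoxb3 stood above that gene. The order of these levels was therefore not read by group. The 4 clusters took more even shares than elsewhere, 25.7% for HoxA, 29.0% for HoxB, 20.5% for HoxC and 24.8% for HoxD.

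Most members stood higher in kidney than in left ventricle. By edgeR's quasi-likelihood test over 46984 genes with Benjamini-Hochberg adjustment (adjusted p under 0.05), 29 of the 39 were higher in kidney and 0 lower. The background was 19.3% of all genes higher and 14.3% lower, and DESeq2 also called 0 lower (31 higher). At an unadjusted p under 0.05, 2 were lower (Hoxb1 and Hoxd12). At least 4-fold higher were 22 members, against 3.81% of all genes. The median log2 difference of the members was 2.29, against -0.10 over all genes and -0.17 over the olfactory receptor genes. With library totals alone as scaling the median of all genes shifted by 0.27 towards kidney, all genes divided into 12452 higher and 3928 lower in place of 9055 and 6715, and 31 members were higher. All 15 members of groups 4 to 8 were higher, as were 4 of 8 in groups 1 to 3 and 10 of 16 in groups 9 to 13.

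The 5 largest kidney excesses over the left ventricle were those of Hoxd8 (log2 difference 4.90 ± 0.202 SE), Hoxa10 (4.10 ± 0.114), Hoxd9 (4.04 ± 0.196), Hoxd10 (4.02 ± 0.166) and Hoxb8 (3.98 ± 0.157). On the linear scale these are 29.8-, 17.1-, 16.4-, 16.2- and 15.8-fold. The left ventricular means of all 5 were below the highest reference homeobox gene there (0.661). All 5 means were above the olfactory line (0.287), among them those of Hoxd8 (0.588) and Hoxd9 (0.600). Among the 10 genes that did not pass were Hoxa2, Hoxb1, Hoxd1, Hoxc12, Hoxd12 and the 4 genes of group 13. Hoxd13 differed by -0.39 ± 0.229. Hoxa2 did pass when the mouse was entered as a block, which gave 31 higher.

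Muscle exceeded left ventricle for 26 members (background 11.3%) and fell below it for 0 (background 15.4%), by edgeR's quasi-likelihood test, with 0 lower at an unadjusted p under 0.05 and 0 lower by DESeq2. The median member differed by 0.76, against 0.12 over all genes. Over the olfactory receptor genes the median was 0.22 and over the 8 reference homeobox genes 0.23, near the HoxD median given below. With library totals alone the median of all genes shifted by -0.32, all genes divided into 2646 higher and 11500 lower in place of 5300 and 7216, and 21 members were higher. Hoxc10 differed by 6.11 ± 0.146 (SE), 69.2-fold, followed by Hoxc9 (3.33 ± 0.158), Hoxa10 (3.08 ± 0.111), Hoxc6 (2.97 ± 0.186) and Hoxc4 (2.96 ± 0.132). At least 4-fold higher were 11 members, against 1.03% of all genes. By cluster, 10 of 11 HoxA genes, 5 of 10 HoxB, 7 of 9 HoxC and 4 of 9 HoxD were higher, and the median differences were 1.59, 0.41, 2.48 and 0.21. With library totals alone 2 HoxB genes were higher and the HoxD median was -0.13.

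Kidney and muscle differed in both directions, and the clusters split. By the same test 21 members were higher in kidney (background 22.1%) and 8 were lower (background 21.4%), and the share of members that were lower was thus near that of all genes. In the same comparison the olfactory receptor genes had a median of -0.38, and the 8 reference homeobox genes -0.45 (-0.77 to 0.12). Of the 10 HoxB genes 8 were higher in kidney and 2 lower, with a median difference of 2.49. Of the 9 HoxC genes 5 were lower in kidney and 1, Hoxc6, higher, with a median of -0.47. The HoxC direction depended on scaling, since with library totals alone 2 were lower (Hoxc10 and Hoxc11) and 3 higher (Hoxc5, Hoxc6 and Hoxc8), with a median of 0.12. Of the 11 HoxA genes 7 were higher and 1 lower, and of the 9 HoxD genes 5 were higher. Hoxd4 (log2 difference 2.78 ± 0.121 SE) shares 52.3% of its exon bases with same-strand transcripts that include Hoxd3, and its counts may hold reads of these.

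The 5 largest in the kidney's favour were Hoxb8 (3.47 ± 0.153 SE), Hoxb4 (3.17 ± 0.144), Hoxb6 (2.90 ± 0.122), Hoxb9 (2.87 ± 0.147) and Hoxb7 (2.86 ± 0.117), all in HoxB. In the muscle's favour were Hoxc10 (-2.58 ± 0.118), Hoxc11 (-1.90 ± 0.198), Hoxa13 (-1.61 ± 0.197), Hoxc12 (-0.71 ± 0.197) and Hoxc4 (-0.66 ± 0.118). Hoxc10 was the single member at least 4-fold lower, against 2.16% of all genes, and 10 members were at least 4-fold higher, against 4.93%. The split depends on scaling. With library totals alone in place of trimmed means, the median of all genes shifted by 0.59 towards kidney, all genes divided into 16363 higher and 2465 lower in place of 10392 and 10046, and the members into 26 higher and 3 lower. Hoxc10, Hoxc11 and Hoxa13 remained lower. Hoxb1, Hoxb13 and Hoxc9 differed by less than that shift. These genes, Hoxc12 and Hoxc4 differed by amounts within the range of the reference homeobox genes (-0.77 to 0.12). The calls of Hoxb1 and Hoxb13 each held in 5 of the 8 fits that left out 1 mouse.

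**Figure D3:**
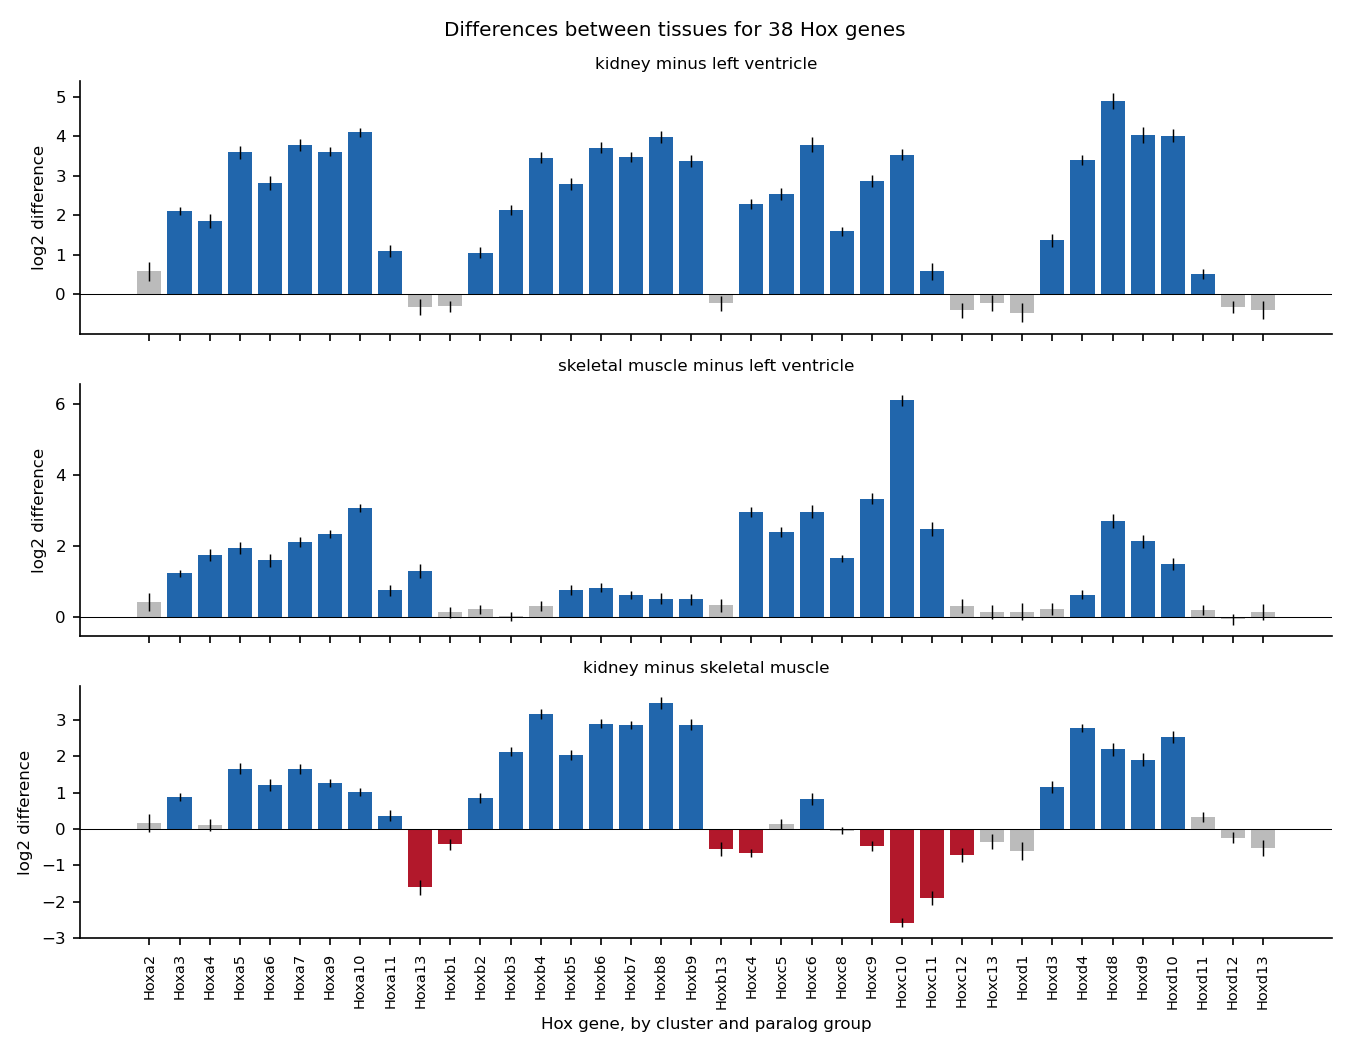
Log2 difference between tissues for 38 of the Hox genes, ordered by cluster and paralog group, from edgeR over 24 libraries with trimmed-mean scaling. Bars are estimates with 1 SE, blue for higher and red for lower at an adjusted p under 0.05, and grey for members that did not pass. Middle groups are higher in kidney in every cluster against the left ventricle, and against muscle 5 HoxC genes are lower in kidney and 1 higher, with Hoxc10 at -2.58 (with library totals alone 2 are lower and 3 higher).

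Non-coding transcripts that lie in the clusters were read as well. Of the 11 found in the table, 5 were higher in kidney than in left ventricle (background 19.3%), with a median log2 difference of 0.47. Hoxb5os (3.10 ± 0.202 SE), Hoxb3os (2.57 ± 0.140) and Hotairm1 (2.41 ± 0.133), of which the first pair lies in HoxB and the last in HoxA, led them. Against muscle 5 were higher (background 22.1%) and 3 lower (background 21.4%) in kidney. Hotair, which lies between Hoxc11 and Hoxc12, averaged 0.448 CPM per exon kilobase in muscle, 0.294 in kidney and 0.300 in the left ventricle. In each tissue this lay between the olfactory line and the highest reference homeobox gene. Its kidney level was below muscle by 0.62 ± 0.224 on the log2 scale (adjusted p = 0.0269, edgeR). The 8 reference homeobox genes had a median of -0.45 there (-0.77 to 0.12). The strand setting of the counting is not given in the sources used here, so reads of Hoxb3 and Hoxb3os, which overlap, cannot be told apart.

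The partner homeodomain genes were measured in all 3 tissues. Of 9 Pbx, Meis and Pknox genes, 4 were higher (background 19.3%) and 3 lower (background 14.3%) in kidney than in left ventricle (median 0.31). In kidney against muscle, 6 were higher (background 22.1%) and 1 lower (background 21.4%), with a median of 0.75. Meis1, a partner of Hox proteins in many lineages, averaged 2.92 CPM per exon kilobase in the left ventricle against 1.29 in kidney and 1.02 in muscle. Meis2 was low in muscle at 0.523, between the olfactory line (0.336) and the highest reference homeobox gene (0.608). Pknox2 was highest in muscle at 4.25. Left ventricle thus held more Meis1 than either other tissue while its Hox levels were the lowest.

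Genes of limb and body wall identity gave a second view of the muscle. Of 10 such genes, 7 were higher in muscle than in left ventricle (background 11.3%) and 1 lower (background 15.4%), with a median of 0.91. Tbx15 averaged 67.3 CPM per exon kilobase in muscle against 0.480 in the left ventricle and 0.274 in kidney. Lbx1, which marks migrating limb muscle precursors, averaged 9.86 in muscle, 0.564 and 0.393. Tbx4, of the hindlimb, was higher in muscle (0.899) than in left ventricle (0.475) by 0.92 ± 0.143 on the log2 scale. Pitx1, a hindlimb selector, averaged 0.772 in muscle and 0.698 in the left ventricle, a difference of 0.16 ± 0.161 that did not pass (adjusted p = 0.553). Tbx5, of the forelimb and heart, averaged 3.28 in the left ventricle and 0.576 in muscle.

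Of 27 Polycomb and Trithorax regulators, 17 were higher (background 19.3%) and 2 lower (background 14.3%) in kidney than in left ventricle. Their median was 0.34 against -0.10 over all genes. Pcgf2 (1.52 ± 0.108 SE), Men1 (1.30 ± 0.108) and Phc1 (1.25 ± 0.0943) had the smallest adjusted p. Between muscle and left ventricle 5 were higher in muscle (background 11.3%) and 9 lower (background 15.4%).

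Age made no difference that passed in any tissue. By edgeR's quasi-likelihood test with sex as a covariate, 0 of the 39 passed in left ventricle, muscle or kidney, where 0.0741%, 0.0183% and 0.112% of all genes did. DESeq2 also called 0 in each. At an unadjusted p under 0.05 there were 2 in left ventricle, 0 in muscle and 3 in kidney by edgeR, and 3, 0 and 1 by DESeq2. The median log2 difference of the members (86 minus 16.5 weeks) was 0.02 in left ventricle, 0.06 in muscle and -0.01 in kidney, against 0.01, 0.02 and 0.02 over all genes. Standard errors ran from 0.0852 to 0.343 in kidney, 0.107 to 0.312 in muscle and 0.173 to 0.423 in left ventricle, so the ventricular values are the least precise.

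Values are given for the 2 members with the smallest p in each tissue. In kidney Hoxa9, a posterior HoxA gene, stood at 5.14, 4.83, 5.12 and 5.19 at 16.5 weeks and 3.66, 3.91, 3.59 and 4.58 at 86 weeks, all 4 older values below the younger ones. Its log2 difference was -0.33 ± 0.0852 (SE, adjusted p = 0.257, edgeR). Hoxc12 in kidney stood at 0.299, 0.353, 0.395 and 0.445 at 16.5 weeks and 0.567, 0.647, 0.384 and 0.642 at 86 weeks, from 26 to 61 counts per library, with groups that overlap (0.62 ± 0.273, adjusted p = 0.605). In the left ventricle Hoxd12 stood at 0.308, 0.314, 0.303 and 0.321 at 16.5 weeks and 0.445, 0.502, 0.387 and 0.596 at 86 weeks, from 54 to 101 counts per library, and the ages did not overlap. Hoxb9 there stood at 0.628, 0.553, 0.436 and 0.378 at 16.5 weeks and 0.473, 0.210, 0.240 and 0.313 at 86 weeks, with ages that overlapped. The differences were 0.63 ± 0.240 for Hoxd12 and -0.68 ± 0.270 for Hoxb9, both with an adjusted p of 0.9997 (edgeR). In muscle Hoxd11 stood at 0.431, 0.404, 0.417 and 0.427 at 16.5 weeks and 0.452, 0.540, 0.551 and 0.536 at 86 weeks, without overlap (0.34 ± 0.166, adjusted p = 0.919). Hoxb3 in muscle stood at 0.976, 0.698, 0.526 and 0.538 at 16.5 weeks and 0.740, 0.817, 0.869 and 0.936 at 86 weeks and overlapped, with a difference of 0.35 ± 0.207 (SE, adjusted p = 0.952).

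The leading genes had older and younger values that overlapped. Hoxd8 in kidney averaged 18.0 ± 4.03 at 16.5 weeks and 17.3 ± 3.46 at 86 weeks (SD, n = 4 each), a difference of -0.01 ± 0.112 on the log2 scale. Hoxc10 in muscle averaged 20.9 ± 3.09 and 20.1 ± 1.34, a difference of -0.02 ± 0.107. Of the 26 muscle members above the highest reference gene, all 26 differed by less than 0.5, from -0.20 (Hoxa7) to 0.35 (Hoxb3). Of the 32 in kidney, 31 did, the other being Hoxc12. A test of whether the age difference itself differed among tissues called 0 of 39 (background 0.0319%), with 0 at an unadjusted p under 0.05 by edgeR and 0 adjusted by DESeq2.

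In the partner, regulator, limb and cluster transcript lists the smallest adjusted p-values for age (edgeR) were all in kidney, 0.329 for Meis3, 0.354 for Ezh2, 0.466 for Lbx1 and 0.732 for Hotairm1. Among 12 markers of the collecting duct, the epithelium that grows from the ureteric bud, 1 fell with age in kidney (background 0.112% in either direction). It was Foxi1 of the intercalated cells, by 0.80 ± 0.120 on the log2 scale.

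**Figure D4:**
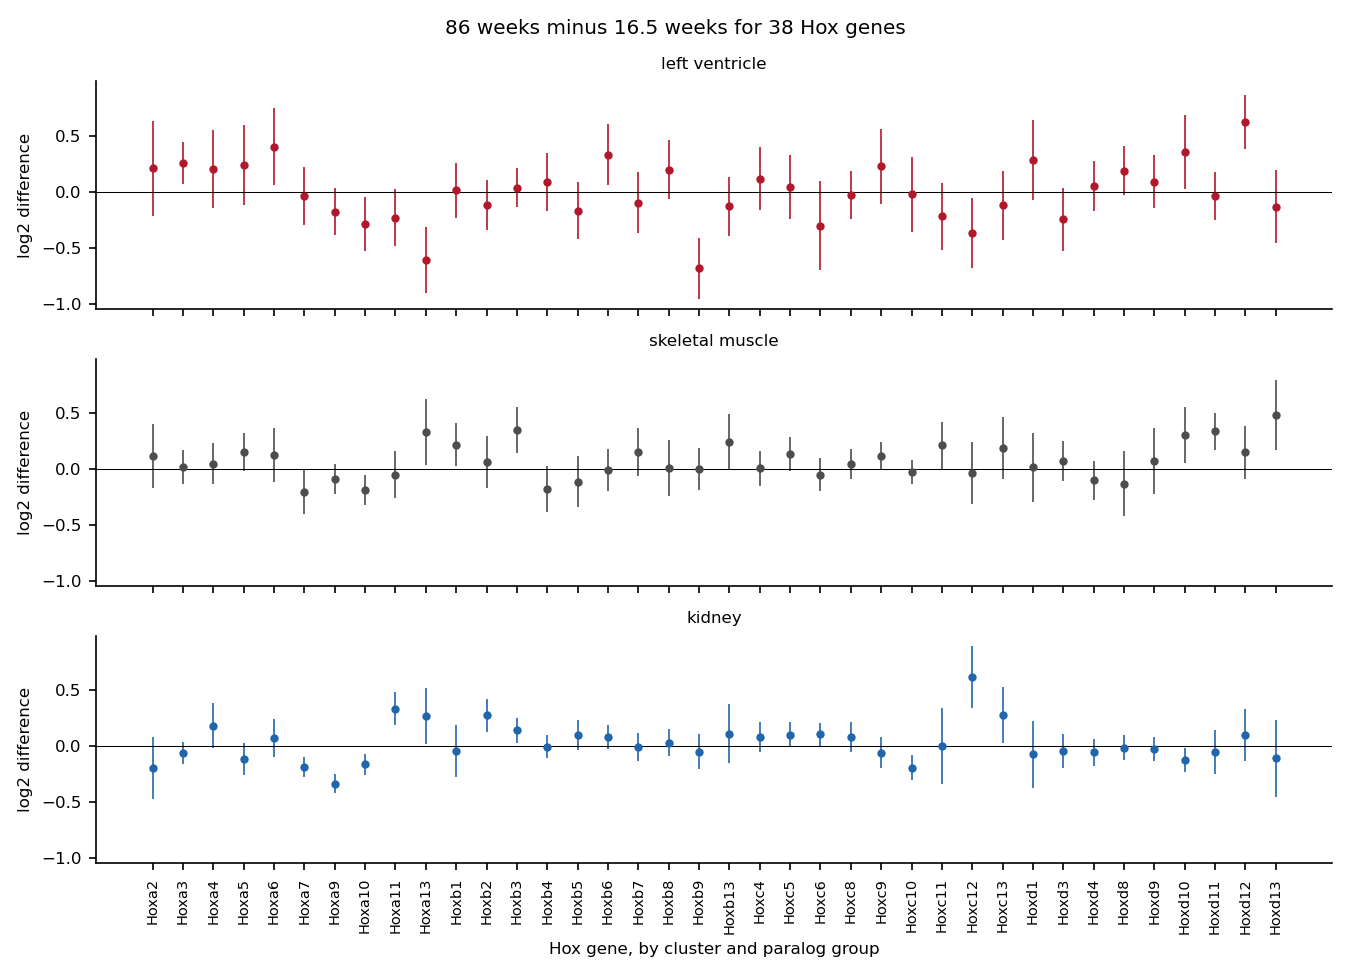
Log2 difference between 86-week and 16.5-week mice for 38 of the Hox genes in each tissue, ordered by cluster and paralog group, from edgeR with sex as a covariate. Points are estimates and bars 1 SE, over 4 mice per age. None passed, and the extremes are Hoxb9 at -0.68 and Hoxd12 at 0.63 in left ventricle.

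Sex was related to Hox levels in kidney. There 6 of the 39 were lower in males and 0 higher at an adjusted p under 0.05 (edgeR with age as a covariate), where 3.81% of all genes were lower and 3.77% higher. With RLE size factors in place of trimmed means, and in a single fit of all 24 libraries, 2 were lower, Hoxb8 and Hoxb9. At an unadjusted p under 0.05 there were 12, Hoxc10 (0.37 ± 0.113 SE, higher in males) among them, and DESeq2 called 4 lower and 1 higher. All 6 were in HoxB (Hoxb4, Hoxb8, Hoxb9) or HoxD (Hoxd4, Hoxd8, Hoxd10). In left ventricle 0 passed (background 0.871%) and in muscle 0 (background 1.36%), with 1 at an unadjusted p under 0.05 in each by edgeR and 0 adjusted by DESeq2. In the left ventricle the smallest p were those of Hoxc13 (females 0.299, 0.390, 0.391 and 0.424, males 0.295, 0.271, 0.123 and 0.279, -0.68 ± 0.308 SE, male minus female) and Hoxb4. Hoxb4 there stood at 0.714, 0.504, 0.385 and 0.878 in females and 0.475, 0.379, 0.423 and 0.516 in males (-0.49 ± 0.259). In muscle they were those of Hoxc11, at 0.962, 0.814, 1.49995 and 1.39 in females and 1.98, 1.46, 1.55 and 1.18 in males (0.47 ± 0.211), and Hoxd3. Hoxd3 there stood at 0.554, 0.620, 0.781 and 0.648 in females and 0.603, 0.449, 0.426 and 0.477 in males (-0.36 ± 0.180). Females and males did not overlap for Hoxc13 and overlapped for Hoxb4, Hoxc11 and Hoxd3. Whether the sex difference differed among tissues was not tested.

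Hoxb9 and Hoxb8, neighbours in HoxB, differed most. Hoxb9 stood at 5.78, 4.96, 4.56 and 7.04 CPM per exon kilobase in females (2 of 16.5 weeks, then 2 of 86 weeks) and 2.36, 3.97, 2.48 and 2.73 in males. No male value reached a female one. The log2 difference was -0.98 ± 0.161 (SE, adjusted p = 0.00124, edgeR), 1.97-fold. Hoxb8 stood at 7.86, 6.45, 7.49 and 9.32 in females and 5.18, 5.17, 3.79 and 5.02 in males, again without overlap, and differed by -0.72 ± 0.123 (adjusted p = 0.00160, edgeR). These 2 calls held in all 8 fits that left out 1 mouse.

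The other 4 differed less. Hoxd4 differed by -0.49 ± 0.123 (SE), with females at 5.76, 5.58, 5.31 and 5.88 and males at 3.54, 5.10, 3.15 and 4.59. Hoxd8 differed by -0.44 ± 0.112, with females at 22.9, 19.3, 18.2 and 19.9 and males at 13.7, 15.9, 12.2 and 18.7, and the highest male lay above the lowest female. Hoxd10 differed by -0.38 ± 0.105, with females at 6.38, 5.27, 4.47 and 5.31 and males at 4.12, 4.38, 4.02 and 4.13. Hoxb4 differed by -0.35 ± 0.0995, with females at 6.96, 6.04, 5.82 and 7.15 and males at 5.30, 5.28, 4.37 and 5.75. The calls of these 4 held in 3, 4, 1 and 2 of the 8 fits that left out 1 mouse. Without the 16.5-week replicate 14, the 16.5-week replicate 19 or the 86-week replicate 14 only Hoxb9 and Hoxb8 were called. Hoxd4, Hoxd8, Hoxd10 and Hoxb4 were lower in males in all 8 of these fits. Females and males did not overlap for Hoxd4, Hoxd10 and Hoxb4.

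**Figure D5:**
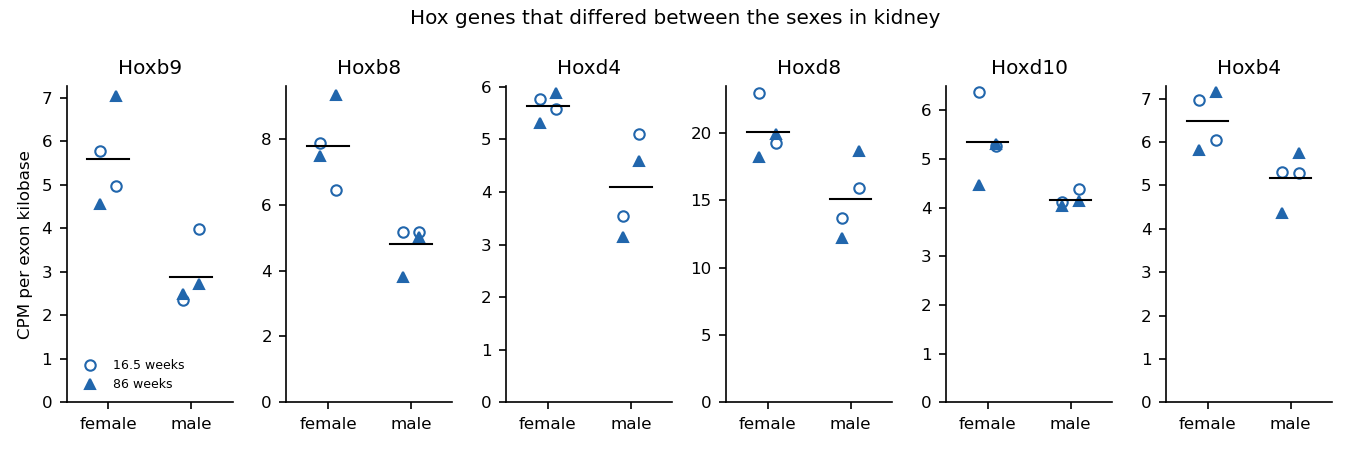
Kidney level (CPM per exon kilobase, linear axes from 0) of the 6 Hox genes called between the sexes, for 4 females and 4 males. Open circles are 16.5-week mice, filled triangles 86-week mice and bars the mean of 4. Every male value of Hoxb9 and Hoxb8 lies below every female value.

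Cluster transcripts differed in both directions in the same kidneys. Halr1, a long RNA of the HoxA region, was lower in males by 1.85 ± 0.220 on the log2 scale and Hoxb5os by 0.69 ± 0.150, and Hoxb3os was higher by 0.42 ± 0.114. Among the partner genes Pknox2 was lower in males by 0.75 ± 0.112.

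Markers of kidney cell types moved with sex as well, where 3.81% of all genes were lower in males and 3.77% higher. Of 12 collecting duct and ureteric markers 5 were lower and 1 higher in males, among them Foxi1 (-0.77 ± 0.120 SE) and Gata3 (-0.59 ± 0.0935), and their summed level was 579 to 867 CPM in females and 470 to 641 in males. Of 6 podocyte markers 5 were lower, with sums of 225 to 338 CPM in females and 178 to 257 in males. Of 7 loop and distal tubule markers 3 were lower, with sums of 3983 to 5203 and 3120 to 3973 that did not overlap. Of 8 proximal tubule markers 3 were higher and 2 lower, Slc22a6 by 1.51 ± 0.102 among the former, with sums of 8951 to 13979 and 11922 to 15068. Fibroblast, endothelial and smooth muscle markers had 2 of 10, 1 of 8 and 1 of 8 lower. Called or not, 10, 7 and 8 of them had estimates below 0, with median log2 differences of -0.48, -0.24 and -0.59. Of 8 blood and immune markers 2 were lower (median -0.34). Of 6 Schwann and nerve markers 2 were lower (median -0.33), with sums of 26.9 to 29.4 CPM in females and 20.4 to 24.6 in males. The part of cell type make-up in the Hox difference was not tested.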

How the data were processed

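Total RNA of left ventricle, skeletal muscle and kidney from 8 mice was sequenced after ribosomal RNA depletion. The authors deposited raw counts per gene for 24 libraries. STAR 2.7.6a, StringTie 2.1.1 and GRCm38.p6 are named in the submitters' processing notes, and the counting tool's strand setting is not given in the sources used here.

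The 39 Hox genes were matched to GENCODE M21 for position and exon length. Counts were tested in R 4.3.3 with edgeR 4.0.16 (quasi-likelihood F-test, TMM scaling, filterByExpr, Benjamini-Hochberg adjustment over all genes, threshold 0.05). Tissues were compared over 24 libraries with age and sex terms per tissue and no term for the mouse (15 residual degrees of freedom). Age and sex within a tissue were compared over 8 libraries with both as terms (5 residual degrees of freedom). DESeq2 1.42.0, other scalings, the mouse as a block, no filter, no covariate and leaving out each mouse were alternatives. The procedure was run on simulated counts, with libraries drawn as independent and known differences set only in genes with higher counts. That run does not cover differences in low-count genes or libraries that share a mouse. Levels are CPM on TMM-scaled library sizes per kilobase of exon. P-values for age and sex within a tissue measure the spread between mice. Those of the tests over 24 libraries mix spread between and within the 8 mice, since libraries of 1 mouse were treated as independent.

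Members and lists were chosen with earlier results of these data known. Named in full were the 4 highest members per tissue, members called for age or sex or else the 2 with the smallest p, and the 5 largest differences per direction between tissues. Samples of 1 mouse are paired by its name in the labels. Deviations of same-mouse samples had median correlations of 0.167 (left ventricle and muscle), 0.0847 (left ventricle and kidney) and 0.101 (muscle and kidney) over 19704 genes. Promoter sequences are from RefSeq. Values of some single genes are not reported here.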

Additional observations from a re-analysis of the deposited data

Results flagged for a closer look

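In 52 groups of 4 libraries, 4 Hox values stood apart from the other 3 of their group by more than Dixon's 95% critical value, and chance alone marks about 1 in 20 groups. Hoxb3 in the left ventricle was lowest in the 16.5-week replicate 19, at 0.615 CPM per exon kilobase with the nearest value at 0.771. Hoxa10 in muscle was highest in the 16.5-week replicate 14, at 3.77 with the nearest at 2.97. Hoxc9 in muscle was highest in the 16.5-week replicate 20, at 2.87 with the nearest at 2.69. Hoxd11 in muscle was lowest in the 86-week replicate 11, at 0.452 with the nearest at 0.536.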

How the results depend on the processing

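Of the counts of members recomputed under an alternative, 282 stayed within 1.5 times the reported value and 12 did not. Leaving out each mouse gave 0 to 1 members lower in kidney than left ventricle, the 1 being Hoxd1 without the 16.5-week replicate 15. Kidney against muscle had 3 lower members with library totals only. For sex in kidney, 1 member (Hoxc10) was higher in males with DESeq2 and 1 with no low-count filter, and 2 were lower in the fit of all 24 libraries and 2 with RLE size factors. Leaving out each mouse gave 2 to 5 members lower in males. In the left ventricle 1 member was above background by the highest of 8 homeobox genes, a line added after seeing the data. Of the values of single members, 431 kept their call and direction, 37 lost the call and none of these reversed. With the mouse as a replicate block, 31 members were higher in kidney than left ventricle, 21 higher and 8 lower than in muscle, and 26 higher in muscle than left ventricle; it changed no other call. No paired analysis was possible because ages and sexes are different mice, for comparisons within a tissue. Low counts in the left ventricle limit the precision of most members there.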
